A study of Rattus norvegicus with 6 samples.

Results

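A set of 7 genes that low oxygen induces in many cell types, Egln3, Bnip3, Vegfa, Adm, Ankrd37, Car9 and P4ha1, were followed in rat oligodendrocyte progenitor cells (OPCs) with and without fibrinogen. They were listed by name, and all 7 were among the 13355 genes measured. OPCs are the dividing glial cells that give rise to oligodendrocytes, the cells that make myelin. They were prepared from rat pups of postnatal day 1 to 2 and kept for 2 days in proliferation medium with N2, B27, NT3 and PDGF. The treated group (fibrinogen, 3 arrays) then received fibrinogen, the clotting protein of blood plasma, for 48 h in differentiation medium. The control group (3 arrays) is labelled unstimulated with the same 48 h in its titles, and its medium is not given in the sources used here. The strain, the oxygen level of the cultures and the number of separate preparations are not given there either, so p-values measure only the spread between these arrays, which may be technical. There was no low-oxygen group, and the series title asks about BMP signaling and myelin repair, not about oxygen.

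The response to low oxygen runs through the hypoxia-inducible factors (HIFs), transcription factors made of an alpha subunit and the partner ARNT. When oxygen is present, prolyl hydroxylases of the EGLN family mark the alpha subunit, and the VHL protein then leads it to destruction. When oxygen is short, the alpha subunit lasts and the dimer binds a short DNA motif near its target genes. The 7 genes act in different places. Egln3 encodes one of the prolyl hydroxylases and is itself a HIF target, so it feeds back on the pathway. Bnip3 encodes a mitochondrial membrane protein that leads damaged or surplus mitochondria to autophagy. Vegfa and Adm encode secreted signals to vessels, vascular endothelial growth factor A and the peptide adrenomedullin. Car9 encodes a carbonic anhydrase at the cell surface that helps set pH. P4ha1 encodes a catalytic subunit of the prolyl 4-hydroxylase that stabilises collagen. Ankrd37 encodes a small ankyrin repeat protein.

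The HIF motif has the core ACGTG or GCGTG, and it was looked for on both strands in the 250 bases before the RefSeq transcription start (build GRCr8). These 4 windows are shown because they belong to the gene that rose (Egln3), the gene that fell (Bnip3) and the other genes with a motif (P4ha1 and Ankrd37). Capitals mark the motif on either strand, and lower case is the rest of the window. All are written 5′ to 3′ on the strand of the gene.
Egln3, chr6:77411016-77411265, minus strand: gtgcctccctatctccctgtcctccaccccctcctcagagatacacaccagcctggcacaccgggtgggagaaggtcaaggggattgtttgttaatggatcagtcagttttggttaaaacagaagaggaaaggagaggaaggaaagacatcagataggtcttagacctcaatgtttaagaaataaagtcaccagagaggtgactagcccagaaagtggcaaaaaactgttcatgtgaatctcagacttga
Bnip3, chr1:203154963-203155212, minus strand: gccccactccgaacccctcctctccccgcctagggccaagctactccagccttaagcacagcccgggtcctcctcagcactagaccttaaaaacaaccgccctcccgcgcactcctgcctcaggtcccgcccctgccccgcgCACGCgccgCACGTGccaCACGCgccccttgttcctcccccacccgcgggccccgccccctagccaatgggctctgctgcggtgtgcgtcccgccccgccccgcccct
P4ha1, chr20:27844796-27845045, plus strand: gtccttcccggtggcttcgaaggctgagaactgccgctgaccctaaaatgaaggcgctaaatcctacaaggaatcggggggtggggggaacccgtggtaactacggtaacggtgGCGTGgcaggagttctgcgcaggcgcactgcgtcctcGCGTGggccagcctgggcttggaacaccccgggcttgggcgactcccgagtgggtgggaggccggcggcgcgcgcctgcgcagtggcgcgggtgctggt
Ankrd37, chr16:53001257-53001506, plus strand: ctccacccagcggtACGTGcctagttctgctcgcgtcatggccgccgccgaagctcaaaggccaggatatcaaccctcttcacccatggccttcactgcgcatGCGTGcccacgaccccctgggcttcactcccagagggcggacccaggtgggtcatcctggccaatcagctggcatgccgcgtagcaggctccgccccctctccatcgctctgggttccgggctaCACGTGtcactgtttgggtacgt

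The Bnip3 window held 3 motif sites, the Ankrd37 window 3 and the P4ha1 window 2, counting overlapping matches as 1 site. In Bnip3 and Ankrd37, 1 site is CACGTG, which reads the same on both strands and is also the core of the E-box, a motif bound by other transcription factors. The windows of Egln3, Adm and Car9 and both windows listed for Vegfa held none. At least 1 site was present in 37.5% of the 8 member windows, near the 36.7% of all 33469 RefSeq windows of this length. At least 2 sites were present in 37.5% and 12.9%, with 3 member windows a small base. The Egln3 window held 1 CG step, against 23 in Bnip3, 25 in P4ha1 and 18 in Ankrd37. The median was 5 over all windows and 10 over the member windows. Both motif cores hold a CG step, so the number of sites depends on the number of such steps. A match is a description of letters and no measured binding site, and the windows do not cover distant or intronic sequence.

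The 7 genes did not move together after 48 h of fibrinogen. Egln3 rose, Bnip3 fell, and the other 5 did not pass the test (an adjusted p of 0.05 in limma, Benjamini-Hochberg over all 13355 genes). Over all genes, 7.16% passed, 4.16% higher and 3.00% lower with fibrinogen; with only 7 members, a count of 2 is a small base to set beside that share. The 6 genes other than Egln3 all had a negative log2 fold change (fibrinogen minus control), and the median of the 7 was -0.27, beside 0.003 for all genes. The control and fibrinogen arrays did not overlap for 4 of the 7 (Egln3, Bnip3, Vegfa and P4ha1), against 27.0% of all genes. Both calls held with any one array left out, while the count over all genes dropped from 956 to between 358 and 592.

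**Figure D1:**
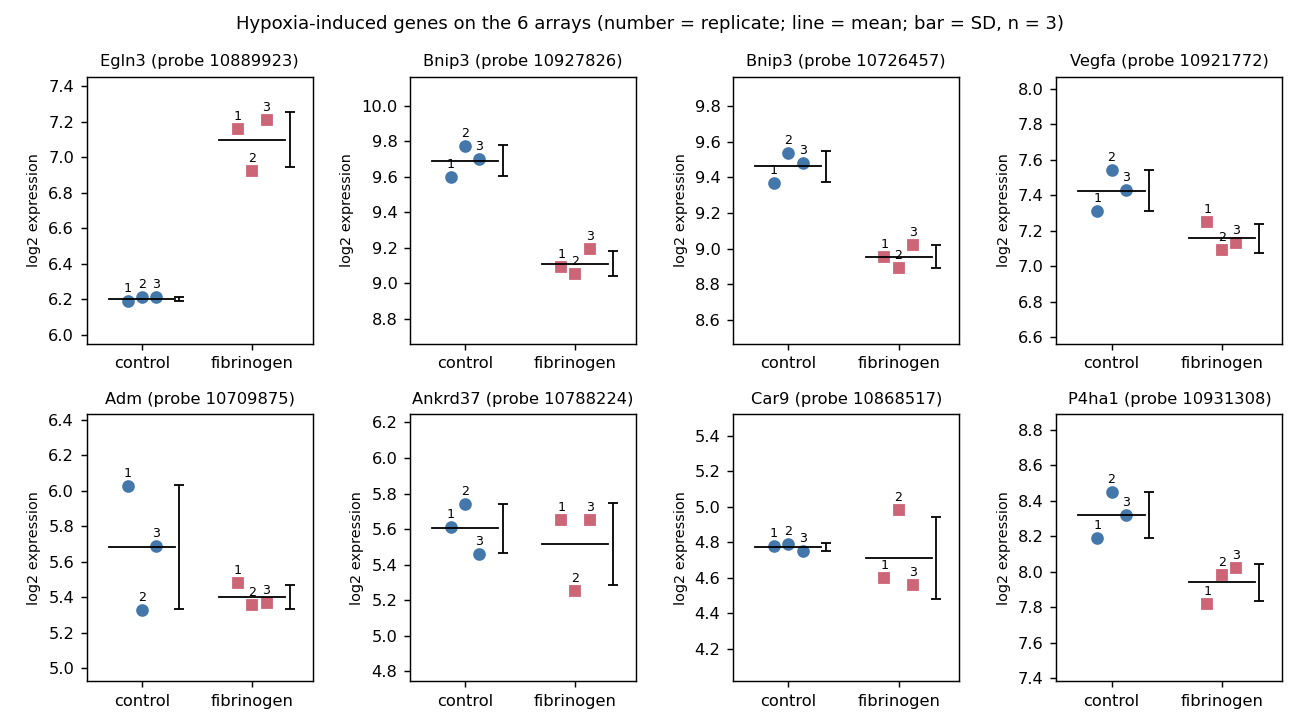
Log2 expression of the 7 genes on each array, 1 panel per probe set (2 for Bnip3), with control arrays as circles and fibrinogen arrays as squares; numbers are replicates, the line is the group mean and the bar the SD (n = 3), and every panel spans the same log2 range. Egln3 is higher and Bnip3 lower in all 3 fibrinogen arrays, while the groups overlap for Adm, Ankrd37 and Car9.

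Egln3, the oxygen-sensing hydroxylase, was the member that rose. Its log2 expression (probe set 10889923) was 6.19, 6.21 and 6.21 on control arrays 1 to 3 and 7.16, 6.92 and 7.21 on fibrinogen arrays 1 to 3. The lowest fibrinogen array lay 0.71 above the highest control array, so the groups were well apart, and the controls spanned only 0.02. The mean went from 6.20 ± 0.01 to 7.10 ± 0.16 (SD, n = 3), a 1.86-fold rise (log2 fold change 0.89, SE 0.09, 95% interval 0.67 to 1.11, limma adjusted p = 0.0035). That was the 70th largest rise and the 93rd smallest p of the 13355 genes. With any one array left out the log2 fold change lay between 0.84 and 0.98 and the adjusted p was at most 0.0236 (without fibrinogen 1).

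Bnip3, the mitophagy receptor, was the member that fell. Its brighter probe set (10927826) read 9.60, 9.77 and 9.70 on control arrays 1 to 3 and 9.09, 9.05 and 9.19 on fibrinogen arrays 1 to 3. All control arrays were above all fibrinogen arrays, by at least 0.41. The mean went from 9.69 ± 0.09 to 9.11 ± 0.07 (SD, n = 3), a 1.49-fold fall (log2 fold change -0.58, SE 0.08, 95% interval -0.77 to -0.39, limma adjusted p = 0.00874). Its second probe set (10726457) read 9.37, 9.54 and 9.48 in control and 8.95, 8.89 and 9.02 with fibrinogen. It followed the first on every array, 0.14 to 0.23 lower, and fell 1.42-fold (adjusted p = 0.0129 in the fit over all probe sets). RefSeq lists 8 Bnip3 pseudogenes in the rat, so RNA from near-identical copies cannot be told apart here, and 2 probe sets of 1 gene are not 2 pieces of evidence. The adjusted p was at most 0.0463 with 1 array left out (without fibrinogen 1).

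P4ha1, the collagen prolyl 4-hydroxylase subunit, was lower on every fibrinogen array but did not pass. Its log2 expression (10931308) was 8.19, 8.45 and 8.32 in control and 7.82, 7.98 and 8.02 with fibrinogen. The groups were 0.17 apart, less than the 0.26 that the controls spanned. The mean was 8.32 ± 0.13 and 7.94 ± 0.11 (SD, n = 3), and the log2 fold change was -0.38 (SE 0.10, 95% interval -0.61 to -0.15, limma adjusted p = 0.0663). It passed in 5 of the 8 other settings that kept all 6 arrays, with adjusted p from 0.00984 to 0.0421, and in none of the 6 that left out 1 array.

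Vegfa, the main growth signal for vessels, was also lower on every fibrinogen array without passing. It read 7.31, 7.54 and 7.43 in control and 7.25, 7.09 and 7.13 with fibrinogen (10921772). Control 1 and fibrinogen 1 were only 0.06 apart, so the groups barely separated. The mean was 7.43 ± 0.12 and 7.16 ± 0.08 (SD, n = 3), a log2 fold change of -0.27 (SE 0.09, 95% interval -0.48 to -0.06, limma adjusted p = 0.137). It passed once the genes below the median mean level were left out (adjusted p = 0.0422). The probe set is listed for 5 RefSeq transcripts, so the splice forms of Vegfa, which differ in how they bind matrix, cannot be told apart.

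Adm was dim and uneven among the controls. It read 6.03, 5.33 and 5.69 in control and 5.48, 5.36 and 5.37 with fibrinogen (10709875). Control 2 lay below every fibrinogen array and control 1 above all others, so the groups overlapped. The log2 fold change was -0.28 (SE 0.17, 95% interval -0.67 to 0.11, limma adjusted p = 0.407), and it was -0.11 without control 1 and -0.46 without control 2.

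Ankrd37 and Car9 showed no difference that these arrays could resolve. Ankrd37 read 5.61, 5.74 and 5.46 in control and 5.65, 5.25 and 5.65 with fibrinogen (10788224). Its log2 fold change was -0.09 (95% interval -0.40 to 0.23, limma adjusted p = 0.776), and the sign turned without fibrinogen 2 (0.05). Car9 read 4.78, 4.79 and 4.75 in control and 4.60, 4.98 and 4.56 with fibrinogen (10868517). The control arrays of Car9 fell inside the range of the fibrinogen arrays. Its log2 fold change was -0.06 (95% interval -0.34 to 0.22, limma adjusted p = 0.831), and it was 0.02 without fibrinogen 3. Among the 6 members other than Egln3, the highest upper bound of a 95% interval was 0.23, below the lower bound of 0.67 for Egln3. The control means of Adm, Ankrd37 and Car9 lay below the median probe set of the control arrays (5.80), and no detection call comes with the values, so whether these 3 are above background is unknown.

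**Figure D2:**
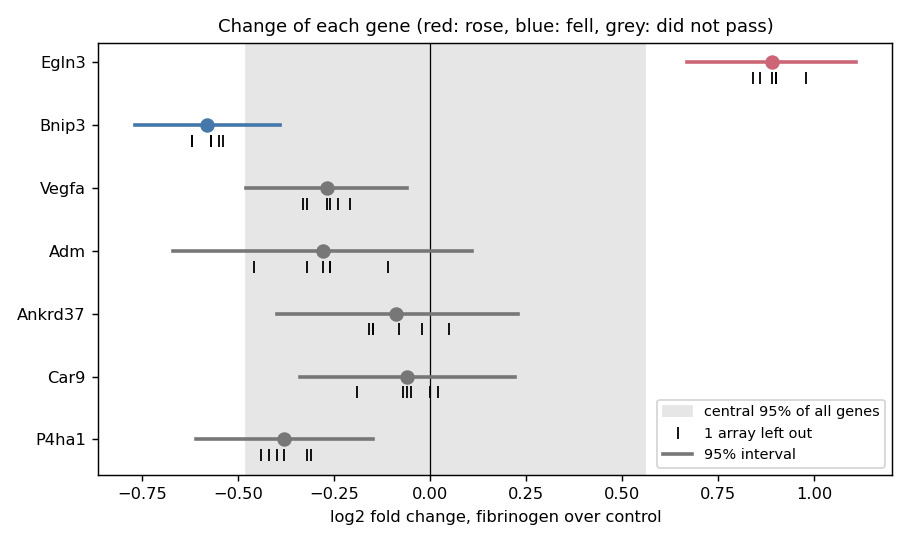
Log2 fold change of each gene (fibrinogen over control; point) with its 95% interval (line) and the 6 values with 1 array left out (ticks); the grey band, from -0.48 to 0.56, holds the central 95% of all 13355 genes. Egln3 lies above the band at 0.89 and Bnip3 below it at -0.58; the other 5 points lie inside it.

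Among 16 genes of the HIF machinery itself, the alpha subunit gene Hif1a rose and 15 did not pass (6.25% called, near the 7.16% of all genes; median log2 fold change 0.05). Hif1a read 9.78, 9.69 and 9.72 in control and 10.22, 10.22 and 10.16 with fibrinogen, without overlap. Its rise was 1.39-fold (log2 fold change 0.47, SE 0.07, limma adjusted p = 0.011), lost without fibrinogen 1 or fibrinogen 2 (highest adjusted p = 0.0542). HIF-1 alpha is controlled mainly through the stability of the protein, which arrays do not measure. Of the other prolyl hydroxylase genes, Egln1 was at -0.16 (95% interval -0.38 to 0.06) and Egln2 at 0.12 (95% interval -0.14 to 0.38), both log2 fold changes that did not pass. Siah2, a ubiquitin ligase for EGLN proteins, was at -0.17 (95% interval -0.41 to 0.06). Arnt2, a partner subunit found in the nervous system, was at 0.26 (95% interval 0.06 to 0.46, adjusted p = 0.126), and Epas1, which encodes HIF-2 alpha, was at 0.20 (95% interval -0.08 to 0.47). Egln2 and Epas1 were picked with their values known.

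Of 27 other measured hypoxia targets, 3 fell, none rose and 24 did not pass (11.1% called; median log2 fold change -0.14). Hmox1 (heme oxygenase 1) read 7.32, 7.15 and 7.40 in control and 6.38, 6.63 and 6.76 with fibrinogen, a 1.62-fold fall (limma adjusted p = 0.0174). Ddit4 (an inhibitor of mTOR signaling, also called REDD1) fell 1.43-fold and Tfrc (the transferrin receptor) 1.30-fold (adjusted p = 0.0217 and 0.0307). Each of these 3 genes also answers to signals other than oxygen, such as oxidative stress for Hmox1, stress hormones for Ddit4 and iron for Tfrc. Vldlr, a lipoprotein receptor, was at -0.35 on the log2 scale and did not pass (95% interval -0.55 to -0.16, adjusted p = 0.051). Hmox1 kept its call only when control 2 or fibrinogen 3 was the array left out (adjusted p up to 0.0639 otherwise). Ddit4 kept its call only without fibrinogen 2 (up to 0.0789 otherwise), and Tfrc only without control 1 (up to 0.112 otherwise). The unmoderated test also lost Hmox1 and Ddit4 (adjusted p = 0.0901 and 0.0748). The count of 3 became 1 without fibrinogen 2 or fibrinogen 3 and 0 without control 3 or fibrinogen 1. It was 2 without control 1 (Tfrc, and Angptl4, which rose there) and 2 without control 2 (Hmox1, and Stc1, which rose there); Angptl4 and Stc1 did not pass with all arrays.

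Glycolysis genes that HIF induces were split: of 19 measured, 2 rose, 1 fell and 16 did not pass (15.8% called; median log2 fold change -0.01). Pfkfb3 and Pfkfb4, which encode isoforms of the enzyme that makes and breaks down a sugar phosphate activator of glycolysis, went opposite ways. Pfkfb4 read 7.17, 6.93 and 6.98 in control and 6.37, 6.39 and 6.38 with fibrinogen, a 1.57-fold fall (limma adjusted p = 0.00683) that held with any one array left out. Pfkfb3 read 7.32, 7.42 and 7.36 in control and 7.73, 7.77 and 7.64 with fibrinogen, a 1.27-fold rise (adjusted p = 0.0392). Eno1 (an enolase) rose 1.26-fold (adjusted p = 0.0385). Pfkfb3 and Eno1 no longer passed when any single array was left out (adjusted p up to 0.136 and 0.129) and with each array centred on its median. That of Pfkfb3 was also lost with quantile normalization added and with the unmoderated test. Without any single array other than control 1 the count of 3 became 1, Pfkfb4. Without control 1 it was 2, Pfkfb4 and the phosphofructokinase gene Pfkl, which did not pass with all arrays. Gpi, an isomerase of the same pathway, was at -0.32 on the log2 scale and did not pass (adjusted p = 0.0543). Picked with their values known, the glucose transporter gene Slc2a1, the pyruvate dehydrogenase kinase gene Pdk1 and the lactate dehydrogenase gene Ldha were at -0.41 (95% interval -0.65 to -0.16), 0.53 (95% interval 0.14 to 0.92) and 0.01 (95% interval -0.14 to 0.17), and none passed.

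Lists of partners of the single members were looked up next. Each list is a small base, and the share to set beside its count is the 7.16% of all genes that passed. Bnip3l, P4ha2, Plod1, Plod2 and Car12 belong both to these lists and to the other hypoxia targets above. For Bnip3, none of 9 measured mitophagy genes passed in limma, and 3 had an unadjusted p below 0.05, against 21.1% of all genes. Its closest relative Bnip3l (also called Nix) read 10.14, 10.13 and 10.04 in control and 9.78, 9.88 and 9.83 with fibrinogen. The groups of Bnip3l did not overlap, at a log2 fold change of -0.27 (95% interval -0.45 to -0.10, adjusted p = 0.0753). Fundc1, a hypoxia-linked mitophagy receptor, Pink1, a kinase that marks damaged mitochondria, and Bcl2l13 were at 0.28, 0.27 and 0.29 (adjusted p = 0.216, 0.22 and 0.338).

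For Vegfa and Adm, none of 13 measured family members and receptor genes passed in limma, while 7 had an unadjusted p below 0.05, in both directions (21.1% of all genes had one). The growth factor genes Vegfb and Vegfc were at -0.35 (95% interval -0.57 to -0.13) and -0.53 (95% interval -0.86 to -0.20) on the log2 scale (adjusted p = 0.0723 and 0.0733). The adrenomedullin receptor gene Calcrl and its partner Ramp2 were at 0.29 (95% interval 0.09 to 0.48) and 0.49 (95% interval 0.17 to 0.81), with adjusted p = 0.0925 and 0.0834. The other listed Ramp genes, picked with their values known, went the other way and did not pass. Ramp3 was at -0.55 (95% interval -1.01 to -0.09) and Ramp1 at -0.19 (95% interval -0.49 to 0.11). The control means of Ramp2 and Ramp3 lay below the median probe set. For P4ha1, 1 of 8 measured collagen-modifying hydroxylases passed (12.5% called). That was P3h2, a prolyl 3-hydroxylase, which read 6.01, 6.23 and 6.01 in control and 5.38, 5.58 and 5.48 with fibrinogen, a 1.52-fold fall (adjusted p = 0.0132) and a call lost without fibrinogen 1 or fibrinogen 3 (highest adjusted p = 0.0606) and with the unmoderated test (0.0618). P3h1 was at -0.31, P4ha2, the other main catalytic subunit, at -0.39, and the lysyl hydroxylase gene Plod1 at 0.23 (adjusted p = 0.105, 0.12 and 0.488). For Car9, 1 of 13 measured carbonic anhydrase genes passed (7.69% called): Car11, a member without catalytic activity, rose 1.26-fold (adjusted p = 0.0411). That call went when any single array was left out (adjusted p up to 0.133), with each array centred on its median and with quantile normalization added. Car5b, Car12, which is the other well-known hypoxia-induced member, and Car14 were at -0.52, -0.31 and -0.17 (adjusted p = 0.154, 0.3 and 0.252).

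**Figure D3:**
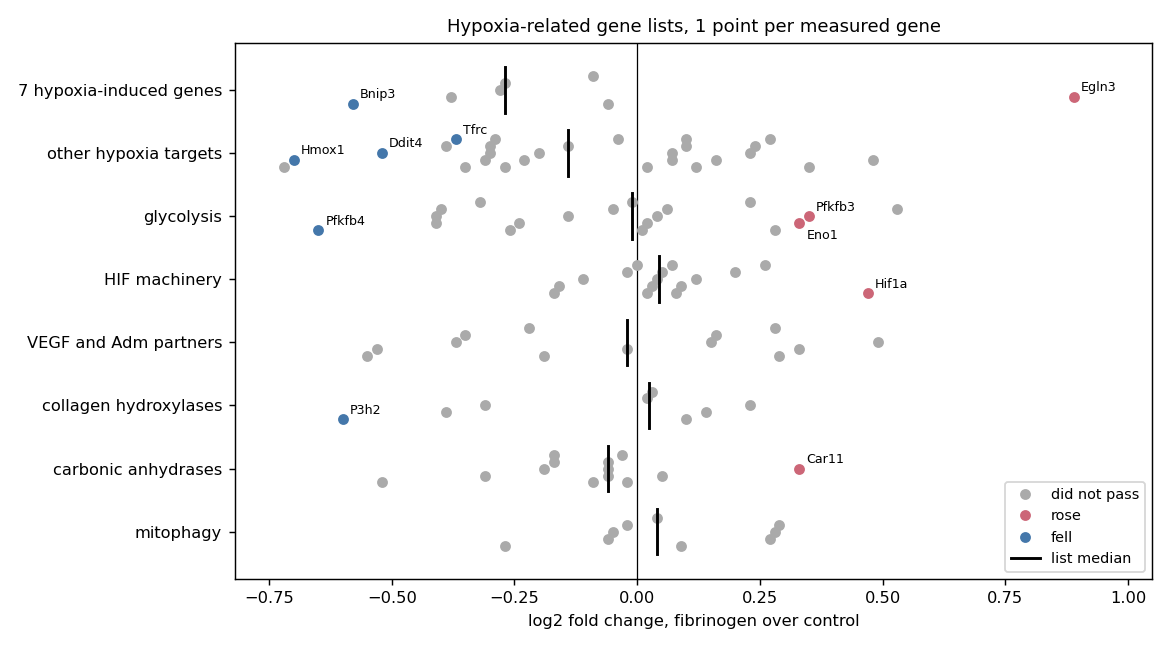
Log2 fold change (fibrinogen over control) of every measured gene of 8 hypoxia-related lists, 1 point per gene, spread vertically only to separate points; red points rose, blue points fell, grey points did not pass, and the black bar is the list's median. Egln3, at 0.89, lies to the right of every other point, and the medians run from -0.27 for the 7 genes to 0.05 for the HIF machinery.

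For Egln3 and Bnip3, the genes with the most similar profile over the arrays were looked up. Likeness was the root mean square difference of log2 values, each centred on its gene's mean, over the 6 arrays, so it reflects mostly the step between the groups. Nearest to Egln3 were Sfrp1 (a secreted modulator of Wnt signaling; difference 0.0491), at 7.55, 7.56 and 7.56 in control and 8.57, 8.41 and 8.60 with fibrinogen, and Igfbp2 (an insulin-like growth factor binding protein; 0.050). Like Egln3, both had close control values and their lowest fibrinogen value on fibrinogen 2. They were chosen for likeness on these same arrays, so the shared pattern is no separate result. In all, 22 of the 13355 genes lay within 0.1 of Egln3. Nearest to Bnip3 were Cyp51 (a sterol demethylase of cholesterol synthesis; 0.0373), at 11.55, 11.61 and 11.55 in control and 10.94, 10.94 and 11.06 with fibrinogen, and Pvr (a cell adhesion receptor; 0.0386). Within 0.1 of Bnip3 lay 111 of the 13355 genes. The step of Bnip3 was smaller than that of Egln3, and a fixed limit takes in more genes near a smaller step. The counts for Egln3 and Bnip3 therefore cannot be compared.

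**Figure D4:**
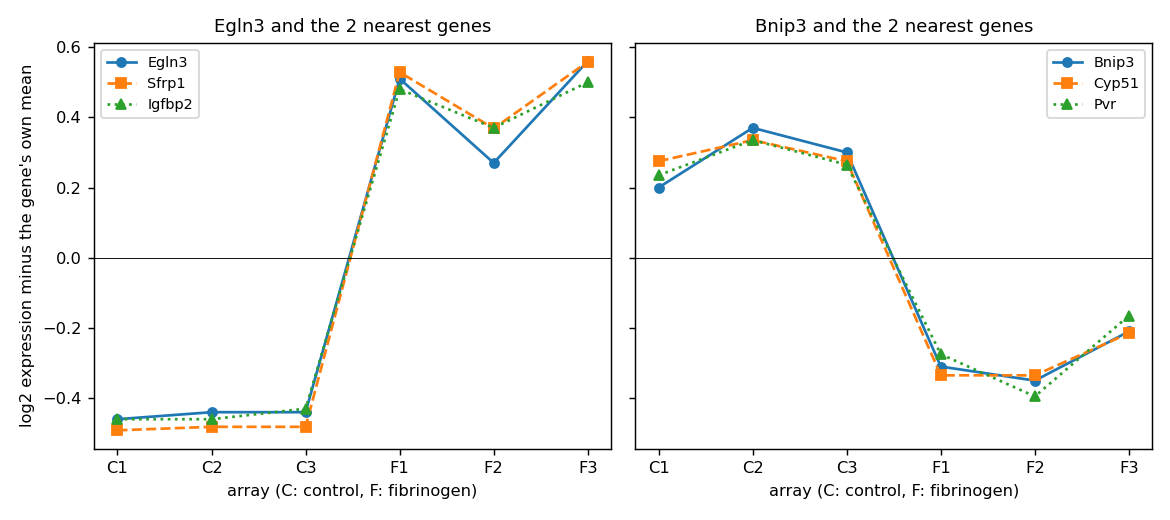
Log2 expression minus each gene's own mean on the 6 arrays (C: control, F: fibrinogen, with the replicate number) for Egln3 and Bnip3 and the 2 genes nearest to each; lines join arrays only to guide the eye. Egln3, Sfrp1 and Igfbp2 have their lowest fibrinogen value on F2, and Bnip3, Cyp51 and Pvr have their highest fibrinogen value on F3. The choice of the nearest genes on these arrays favours such shared patterns.

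Markers of cell types moved between the same groups. Of 7 measured OPC markers 4 rose (Cspg4, the NG2 proteoglycan, among them). The summed linear level of the 7 was 10000 to 10800 in control and 12000 to 12400 with fibrinogen. Sox10 and Gpr17 went the other way, at -0.09 and -0.14 on the log2 scale, and did not pass. OPC markers gave signal in both groups, but in control the oligodendrocyte markers had a similar summed level. Of 7 oligodendrocyte markers 4 fell (9820 to 10400 against 7070 to 7710), and of 6 astrocyte markers 3 rose (1830 to 1950 against 3050 to 3090), Gfap by 1.00 on the log2 scale. The other 3 astrocyte markers, Aqp4, Gja1 and S100b, were at -0.24, -0.10 and -0.09 and did not pass. Of 8 neuron markers 1 rose and 2 fell (2590 to 2830 against 2200 to 2300), and of 8 microglia markers 1 fell (264 to 308 against 235 to 264). Of the 8 microglia markers, 6 lay below the median probe set, the called gene among them. The shares called were 57.1% of OPC, 57.1% of oligodendrocyte and 50% of astrocyte markers, against 7.16% of all genes. They were 37.5% of neuron and 12.5% of microglia markers. All of these shares rest on a small base. Of 6 endothelial and pericyte markers none passed in limma or had an unadjusted p below 0.05, and all 6 lay below the median probe set (102 to 133 against 107 to 116). No detection call comes with the values, so whether the markers below the median probe set are above background is unknown. The 4 OPC calls became 2 without fibrinogen 1, and without any one array the 4 oligodendrocyte calls became 1 or 2 and the 3 neuron calls 1. The microglia call held only without control 1. In these cultures fewer cells of a type and less RNA per cell cannot be told apart, and the part of the markers in the changes of Egln3 and Bnip3 was not tested. The array medians were 5.78 to 5.80 in control and 5.84 with fibrinogen. With each array centred on its median, 434 genes were higher and 516 lower in place of 555 and 401, and both Egln3 and Bnip3 kept their calls.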

How the data were processed

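The series holds log2 expression values deposited by the authors for each probe set and array. Per the submitters' processing notes the tools were RMA and limma, with no version or setting stated; the genome build is not given in the sources used here. RMA compresses changes of dim probe sets, and it comes with no detection call here. Of 26312 rows, 23631 have a value on all 6 arrays. Those with 1 gene symbol in the platform annotation (14083) were used, and the brightest probe set stood for a gene, which gave 13355 genes.

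The 2 groups were compared with a two-sided moderated test (limma 3.58.1 under R 4.3.3; lmFit, then eBayes; group as the only term), checked beforehand on simulated data. The standard error of a log2 fold change had a median of 0.104 over all genes. The text names all 7 members and the 2 genes nearest to each called member. Of the 13 other lists, those related to hypoxia gave up to 4 genes each, with the smallest p. The OPC and astrocyte lists gave the gene with the smallest p and, chosen afterwards, the genes that went the other way. Angptl4, Stc1 and Pfkl are named because they passed when an array was left out, and Plod2 as an entry of 2 lists. Other names are said to be picked with their values known. The members and lists were chosen with earlier results of these data known. Of 167 list entries 154 were measured, and the rest are not analysed here. Promoter windows are RefSeq's (GRCr8), and all 7 members matched by gene number. The alternatives were a replicate block, other scalings, probe choice, filters on dim genes, other variance estimates and leaving out each array.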

Additional observations from a re-analysis of the deposited data

How the results depend on the processing

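Egln3 and Bnip3 kept direction and call under all 8 alternatives with 6 arrays (log2 fold change 0.84 to 0.89 and -0.63 to -0.55) and without any one array (0.84 to 0.98 and -0.62 to -0.54). P4ha1 passed with arrays centred on their medians (-0.43, adjusted p = 0.0421), with quantile normalization added (-0.42, 0.0308), without genes below the median level (-0.38, 0.016), without the dimmest 25% (-0.38, 0.0375) and with a variance trend (-0.38, 0.00984); Vegfa passed without genes below the median level (-0.27, 0.0422). Left-out arrays turned the sign of Ankrd37 (-0.16 to 0.05) and Car9 (-0.19 to 0.02). Ldha was at -0.03 with centring, -0.04 with quantile normalization and -0.07 with the mean of its probe sets. The cause was not tested.

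Counts of calls follow. Leaving out genes below the median level left 6678 genes tested, without Adm, Ankrd37 and Car9. The counts were then 1456 for all genes (627 lower), 4 members, 2 of the HIF machinery and 5 other targets. They were 8 for glycolysis, 2 for VEGF and Adm partners and 1 for mitophagy. Without the dimmest 25%, which left 10016 genes tested, they were 1290 for all genes, 5 other targets, 6 glycolysis, 2 partner and 1 mitophagy gene. With both filters on dim genes, more genes passed over all genes too, from fewer tested. With a variance trend they were 1639 for all genes (947 higher, 692 lower), 6 other targets, 9 glycolysis, 4 partner, 2 collagen hydroxylase and 1 mitophagy gene. With centring they were 950 for all genes, 5 other targets, 1 partner, 1 mitophagy and 0 carbonic anhydrase genes. With quantile normalization they were 994 for all genes, 1 partner and 0 carbonic anhydrase genes. The unmoderated test called 500 genes (268 higher, 232 lower), 1 other target and 0 collagen hydroxylases. Without any one array the counts were 358 to 592 for all genes, 208 to 379 higher and 150 to 239 lower, 2 members each time, 0 to 1 of the HIF machinery, 0 to 2 other targets, 1 to 2 glycolysis genes, 0 to 1 collagen hydroxylase and 0 carbonic anhydrases.

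The titles number the arrays 1 to 3 in both groups. Same-numbered arrays showed no shared deviation over all genes (correlations of deviations 0.02, -0.14 and -0.07). Whether equal numbers share a preparation is not given, and with 3 arrays per group these correlations cannot decide it. With the replicate number as a block, 343 genes were called (199 higher, 144 lower), among them 2 members (adjusted p = 0.0285 for Egln3 and 0.0487 for Bnip3), 0 of the HIF machinery, 1 other target, 1 glycolysis gene and 0 carbonic anhydrases.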
